A study of Mus musculus with 3 samples.

Results

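The cells described here carried transcripts of nephron progenitors together with transcripts of the first steps toward nephron epithelium. Cells were chosen by their measured counts of 9 genes. A member had 3 or more of the 6 progenitor genes Cited1, Six2, Crym, Spock2, Meox1 and Eya1 in addition to 1 or more of Wnt4, Lhx1 and Fgf8. A gene counted as detected from 1 UMI (a molecular identifier that marks 1 captured transcript) in Drop-seq and 10X, and from 20 reads in Fluidigm C1. The rule found 288 members among 1014 cells that passed the progenitor gate and 5110 cells with 500 or more detected genes. They are called transition cells below, as a name for the rule.

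The study measured RNA in single cells of wild-type E14.5 kidneys (E14.5 is the age of the embryo in days); the mice were of mixed background, mainly CD-1 and 129. One library was made on each of 3 platforms, Drop-seq and 10X (droplet capture, UMI counts) and Fluidigm C1 (capture on a chip, read counts). No treatment or mutant was involved, so every comparison is between groups of cells within these libraries. How many animals went into each library the sources used here do not say. The p-values rest on how much differences between cell groups vary across 3 libraries that differ in platform. Differences in level between the libraries are taken out by the fit.

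In the developing kidney, cap mesenchyme cells marked by the transcription factor SIX2 and the transcriptional coregulator Cited1 renew themselves next to the ureteric tip. WNT signals from the ureteric epithelium induce some of them to condense into a pretubular aggregate, which expresses the signals Wnt4 and Fgf8 and the transcription factor Lhx1. The aggregate turns into an epithelial renal vesicle, in which Notch signalling helps to pattern the future nephron segments.

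Drop-seq held 185 transition cells among 573 gate cells, or 32.3% (exact 95% binomial interval 28.5 to 36.3). 10X held 64 among 237, or 27% (21.5 to 33.1), and C1 held 39 among 204, or 19.1% (13.96 to 25.2). As a background, the same 3 genes were counted in cells with 3 or more of 10 endothelial markers, which should lack them. There 1 or more of the 3 genes was found in 15.9% of 107 Drop-seq cells (9.54 to 24.2), 6.59% of 440 10X cells (4.46 to 9.33) and 16.4% of 61 C1 cells (8.15 to 28.1). Median depths were 8204, 8786 and 219418 counts per gate cell and 6879, 8467 and 210982 per endothelial cell. For the thinned shares, the gate and the endothelial group were set at full depth. With every cell thinned to 5000 UMIs, 20.4% of gate cells and 16.3% of endothelial cells had 1 or more of the genes in Drop-seq. The thinned shares were 16.4% and 4.57% in 10X. In C1, thinned to 100000 reads, they were 8.96% and 7.27%. The thinned shares rest on the 516, 219 and 201 gate cells and the 92, 350 and 55 endothelial cells that were deep enough. With every cell thinned before gating, the gate shares were lower, at 15.3%, 12.3% and 4.44% in Drop-seq, 10X and C1. The endothelial group was not chosen again at that depth. With groups set at full depth, intervals of gate share and background did not overlap in 10X at either depth, or in unthinned Drop-seq. They overlapped in thinned Drop-seq and in C1. The intervals cover the counting of cells within 1 library only, and the 3 genes are those of the rule. The gap to the background therefore describes these libraries and is not a test. In C1 the share could not be told from the background at this number of cells. Whether a member with a single count held free RNA was not tested.

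The C1 cells carry a pair of name groups, HT and E14, which the sources used here do not explain. In HT, 35 of 154 gate cells and 7 of 33 endothelial cells had 1 or more of the 3 genes. In E14 these were 4 of 50 and 3 of 28. Counts of genes called are therefore also given without C1. For most single genes the log2 change without C1 is not given.

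Most members had only 1 of the 3 genes. In Drop-seq 47 carried Wnt4 alone, 46 Lhx1 alone, 46 Fgf8 alone, and 46 had 2 or all 3. In 10X the numbers were 25, 3, 27 and 9, and in C1 they were 21, 3, 6 and 9. Wnt4 and Fgf8 without Lhx1 were found in the same cell in 3 of 185 Drop-seq members, 1 of 64 in 10X and 2 of 39 in C1. Many members lay just inside the rule. A single UMI of the 3 genes together made the call in 82 of 185 Drop-seq and 41 of 64 10X members, and in C1 the highest of the 3 genes lay at 20 to 39 reads in 18 of 39. Just outside it, 82 Drop-seq, 30 10X and 25 C1 cells had 1 or more of the 3 genes but only 2 progenitor genes. A further 19 gate cells in C1 had 10 to 19 reads of the highest of the 3 genes.

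Transition cells were deeper than the other gate cells. Median counts per cell were 10882 against 7343 in Drop-seq, 11036 against 8465 in 10X and 270049 against 209467 in C1. Each member was therefore paired with a gate cell of the same library that had none of the 3 genes and a total within 0.25 on the log2 scale. This gave 170, 63 and 36 pairs, with nearly equal median counts (10215 and 10264, 10931 and 10992, 258148 and 257195). The 15 Drop-seq, 1 10X and 3 C1 members without a partner included the deepest barcodes, one of which held 325686 UMIs, and they entered no test. Scrublet, a doublet caller, marked none of the members, but it marked under 0.5% of cells in Drop-seq and 10X and is taken not to have worked there. Whether deep members were barcodes that held a progenitor and an epithelial cell together was not tested. No cell name was shared between libraries, but each library names its own cells, so this could not show a shared cell.

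Another group, called early epithelium here, held cells with 0 or 1 progenitor genes and 2 or more of Wnt4, Lhx1 and Fgf8. It had 207 Drop-seq, 111 10X and 26 C1 cells and was not matched on depth. Levels below are CPM, the counts scaled to 1e6, for the summed cells of a group, always in the order matched progenitors, transition cells, early epithelium.

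The genes of the rule are given as a description with no test, since they chose the cells. Cited1 stood at 439, 348 and 14.9 CPM in Drop-seq, 724, 420 and 23.7 in the 10X library, and 1294, 692 and 34.2 with C1. Six2 stood at 77.5, 60.8 and 1.75 CPM in Drop-seq, 176, 148 and 1.64 in the 10X library, and 199.5, 143 and 2.97 with C1. Crym, which encodes a thyroid hormone-binding protein, stood at 294, 245 and 8.75 CPM in Drop-seq, 338, 225 and 4.91 in the 10X library, and 371, 254 and 10.7 with C1. All 3 were lower in transition cells than in matched progenitors in each library, and far lower again in early epithelium. Meox1 was lower as well in each library. Eya1, a transcriptional partner of SIX2, was the exception in 10X, at 92.2 CPM in matched progenitors and 105 in transition cells. Spock2 was the exception in C1, at 17.2 and 26.8 CPM. Members also had fewer progenitor genes than the matched progenitors. Exactly 3 of the 6 were detected in 35.7% of members and 22.4% of matched progenitors in Drop-seq. The shares were 25% and 9.52% in the 10X library, and 59.0% and 36.1% with C1. The member shares here include the members without a partner.

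**Figure D1:**
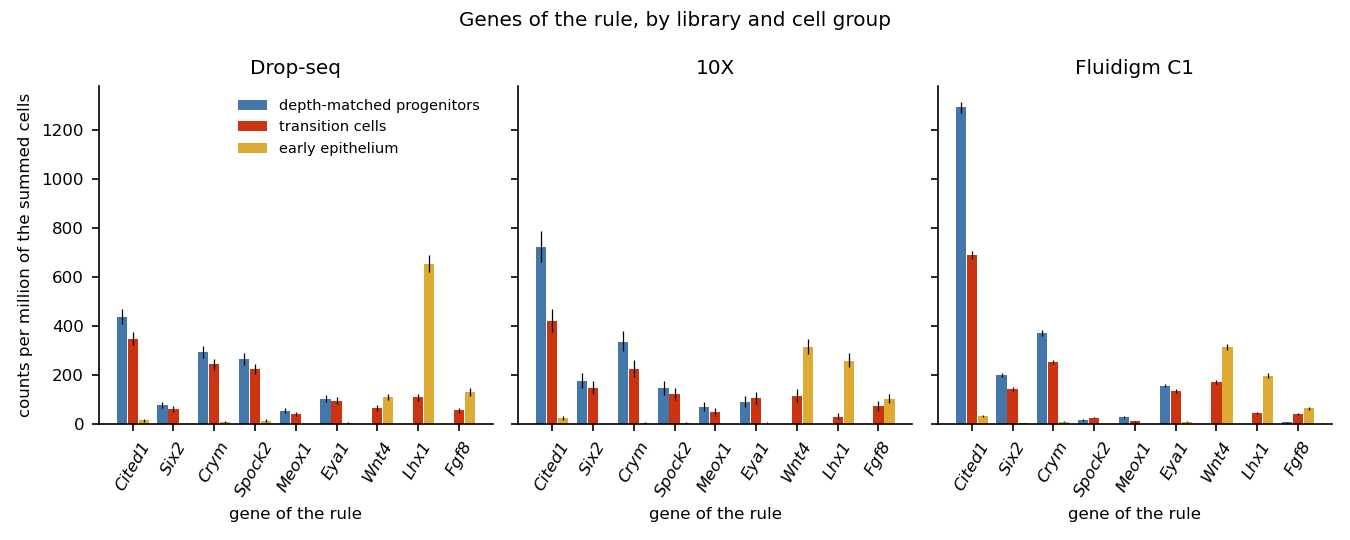
CPM (y axis) of the 9 genes that define the cells (x axis) in matched progenitors, transition cells and early epithelium of each library; bars are summed cells and lines are exact Poisson 95% intervals, which cover counting error only. Cited1 falls from 1294 to 692 CPM between progenitors and transition cells in C1, and Lhx1 rises to 656 CPM in Drop-seq early epithelium.

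Wnt4 was at 64.3 CPM in Drop-seq transition cells and 110 in early epithelium, 115 and 317 in the 10X library, and 174 and 314 in C1. Lhx1 was at 109 and 656 CPM in Drop-seq, 30.7 and 259 in the 10X library, and 45.3 and 198 with C1. Fgf8 was at 56.2 and 131 CPM in Drop-seq, 73.4 and 105 in the 10X library, and 42.9 and 64.3 with C1. The gap between transition cells and early epithelium was thus largest for Lhx1 in all 3 libraries. Part of these gaps lies in the rule, which asked for 1 gene in transition cells and 2 in early epithelium.

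The first comparison asked which other genes differed between transition cells and progenitors of the same depth. Counts were summed per library and cell group and tested with edgeR's quasi-likelihood test, with the library as a block. Of 10048 genes tested, 28 were higher and 6 lower in transition cells at an adjusted p under 0.05, which is 0.338% of the genes (0.279% higher and 0.0597% lower), and 755 had an unadjusted p under 0.05. Early nephron genes led the rise: 13 of the 25 tested rose and none fell, among them the Notch ligand genes Jag1 and Dll1, the Notch target Hes5, and the transcription factor genes Pax8 and Emx2. The median log2 change of the 25 was 1.80, against 0.01 over all genes tested. The gene lists were chosen with earlier results of these data known, so list counts here and below describe these data and are not independent of them. No gene of the cap mesenchyme list outside the gate passed the test (0 of 26 by edgeR and by DESeq2, 2 at an unadjusted p under 0.05, median log2 change -0.02).

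Without C1 the count was 80 higher and 47 lower, and 13 of 25 early nephron genes rose. The count was 6 higher and 1 lower without cells that had 3 or more markers of stroma, endothelium, ureteric epithelium or immune cells, and 4 of the 25 early nephron genes then rose. That setting left 123, 49 and 21 pairs, and the 14 early epithelium cells of C1 did not enter the fit. In edgeR's test 840 genes then had an unadjusted p under 0.05. The choice of cells and the size of the fit thus changed together. With all cells thinned to a fixed depth before gating, 55 pairs were left in Drop-seq, 21 in 10X and 4 in the C1 library, and C1 with its 4 pairs did not enter the fit. No gene then passed edgeR's test (233 at an unadjusted p under 0.05). There 16 of 20 early nephron genes tested lay above 0, with a median log2 change of 0.88. Without the library as a block 0 genes passed edgeR's test (193 at an unadjusted p under 0.05).

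Jag1 (ENSMUSG00000027276.7, chr2:137081456-137116644, mm10, minus strand) encodes a Notch ligand that is needed to pattern the renal vesicle. It stood at 12.2, 46.1 and 112 CPM in Drop-seq, 5.42, 28.0 and 107 in the 10X library, and 16.3, 89.9 and 217 with C1. Each library showed a climb from progenitors through transition cells to early epithelium. The log2 change from matched progenitors was 2.27 (SE 0.23, adjusted p = 0.00033), with 1.89, 2.3 and 2.44 in the 3 libraries. Jag1 transcripts were found in 42 of 170 matched members in Drop-seq, 11 of 63 in 10X and 10 of 36 in C1, where detection takes 20 reads.

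Dll1, a second Notch ligand gene, stood at 2.66, 11.1 and 58.6 CPM in Drop-seq, 6.78, 12.0 and 58.1 in the 10X library, and 1.23, 11.6 and 43.7 with C1. Its log2 change was 2.35 (SE 0.46, adjusted p = 0.0496), just inside the threshold. In 10X the change was 0.80, and 66.7% of the Dll1 counts there came from 1 cell. On the receptor side, Notch1 stood at 17.0, 26.3 and 66.5 CPM in Drop-seq, 21.7, 29.3 and 76.1 in the 10X library, and 18.9, 28.8 and 82.6 with C1, with a log2 change of 0.59 that did not pass the test (adjusted p = 0.54). Of the 17 Notch pathway genes tested, 3 rose in transition cells and none fell.

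Hes5, a transcriptional repressor gene switched on by Notch, stood at 2.66, 12.2 and 95.3 CPM in Drop-seq, 2.71, 18.7 and 145 in the 10X library, and 0.31, 4.73 and 68.3 with C1. The log2 change was 3.02 (SE 0.49, adjusted p = 0.0174). Counts were thin: the matched progenitors held 5, 2 and 3 counts of Hes5 in the 3 libraries, and transition cells held 24, 14 and 47. These lay in few cells, since 11, 6 and 2 members had Hes5 detected and the 5 Drop-seq counts of the progenitors were in 1 cell. Hes1, another Notch target, did not follow it, at 100.3, 104 and 87.4 CPM in Drop-seq, 109, 120 and 108 in the 10X library, and 306, 325 and 336 with C1 (log2 change 0.10, adjusted p = 0.87). The Notch target Nrarp had a log2 change of 1.85 that missed the threshold (adjusted p = 0.12). Of the exonic bases of Hes5, 31.8% are shared with an antisense gene (Gm20421), and the sources used here do not say whether counting used the strand.

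Because Hes5 is the Notch target that rose, the 250 bases before its start are shown (RefSeq, GRCm38.p6, chr4:154960673-154960922, plus strand), with matches to the letters of the RBPJ motif, GTGGGAA on either strand, in capitals. RBPJ is the DNA-binding protein of the Notch pathway.

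Hes5: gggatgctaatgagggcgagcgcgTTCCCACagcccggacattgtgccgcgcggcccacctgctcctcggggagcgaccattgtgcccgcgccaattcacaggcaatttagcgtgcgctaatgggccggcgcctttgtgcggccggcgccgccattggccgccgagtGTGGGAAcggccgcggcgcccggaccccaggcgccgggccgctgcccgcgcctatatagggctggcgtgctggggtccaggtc

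The matches begin 226 and 83 bases before the start, the first on the opposite strand. Such a match was in 5.41% of the 27025 promoters of this length in the table, in 5.25% of those of genes tested, and in 2 of the 22 promoters matched to the 28 genes that rose (Hes5 and Mt2). CTTTGA, the letters searched for TCF and LEF factors of the WNT pathway, occurred in 14.1% of all promoters, in 10.5% of the 7788 promoters of genes tested and in 0 of those 22. A match of letters describes the sequence and shows no binding.

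Several transcription factor genes rose. Pax8, which acts in early nephron formation, stood at 34.0, 60.8 and 160 CPM in Drop-seq, 21.7, 62.7 and 168 in the 10X library, and 40.1, 88.3 and 187 with C1. Its log2 change was 1.11 (SE 0.17, adjusted p = 0.0138). Emx2 (chr19:59458372-59465357, mm10), a homeobox gene required for urogenital development, stood at 7.96, 52.7 and 279 CPM in Drop-seq, 2.71, 30.7 and 218 in the 10X library, and 1.54, 16.7 and 50.5 with C1. Its log2 change was 3.10 (SE 0.29, adjusted p = 0.00032), with 2.67, 3.32 and 3.07 in the 3 libraries. Counts of Emx2 were thin in the matched progenitors, at 15, 2 and 15. It was detected in 38 of 170, 9 of 63 and 4 of 36 matched members. Over 22 alternative settings the log2 change of Emx2 lay between 0.14 and 4.13. Osr2, related to the early kidney factor Osr1, had a larger and more uneven log2 change, 4.66 (SE 0.63, adjusted p = 0.0251), with 3.17, 3.12 and 5.22 in the 3 libraries. One cell held 37.0% of the Osr2 counts of Drop-seq transition cells and 45.8% of those in C1.

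**Figure D2:**
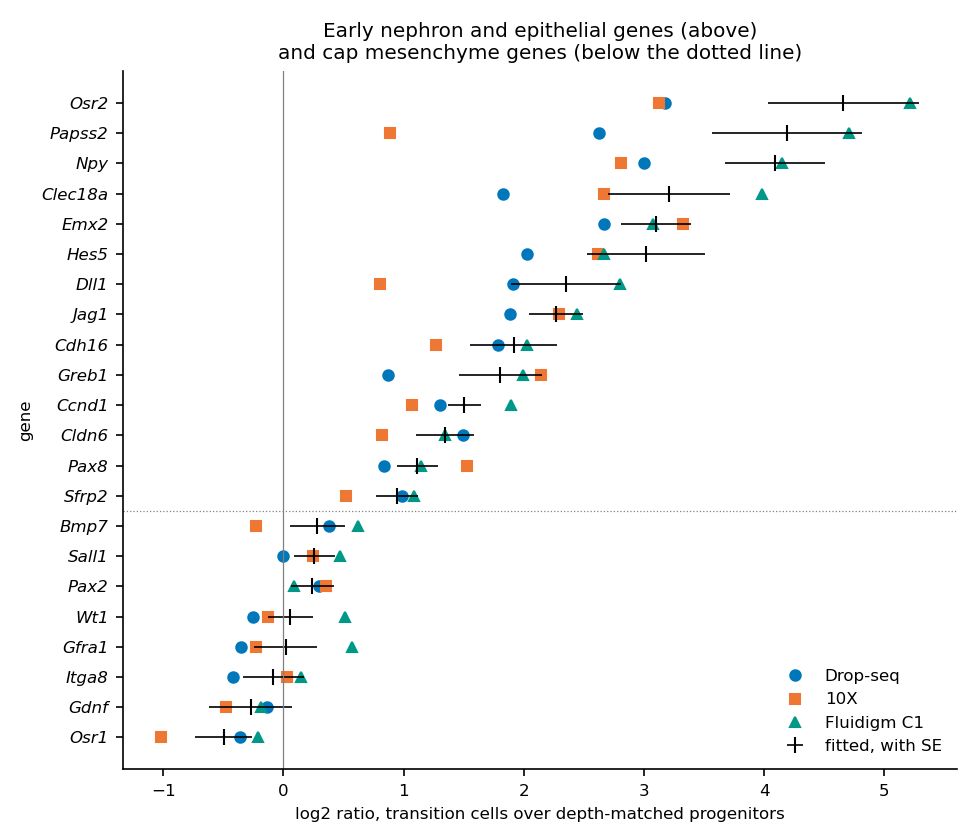
Log2 ratio of transition cells over depth-matched progenitors (x axis) for 14 early nephron and epithelial genes that passed the test and, below the dotted line, 8 cap mesenchyme genes that did not (y axis); coloured points are the 3 libraries and black bars the fitted change with its standard error. The 14 genes lie right of 0 in every library, from 0.95 fitted for Sfrp2 to 4.66 for Osr2, while the 8 genes lie on both sides of 0. The points were computed with a small added count, which draws genes with few counts toward 0, so points and bars are not the same measure.

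Ccnd1, which encodes cyclin D1 and is a known WNT target, stood at 227, 559.5 and 2249 CPM in Drop-seq, 106, 220.1 and 839 in the 10X library, and 128, 472 and 1151 with C1. Its log2 change was 1.504 (SE 0.14, adjusted p = 0.00032). Ccnd1 was the most widely detected of the 13 genes, in 141 of 170, 45 of 63 and 27 of 36 matched members, but endothelial cells also held 662, 243 and 368 CPM of it. Other WNT pathway genes did not pass the test apart from Sfrp2, a secreted WNT modulator (log2 change 0.95, adjusted p = 0.0391). Sfrp2 stood at 70.6, 140 and 469 CPM in Drop-seq, 48.8, 69.3 and 259 in the 10X library, and 65.1, 137 and 252 with C1. Lef1, a transcription factor of the pathway, had 18.2 CPM in Drop-seq transition cells against 6.90 in matched progenitors, 9.34 against 4.07 in 10X and 21.2 against 6.57 in C1. Its log2 change of 1.51 missed the threshold (SE 0.38, adjusted p = 0.16). The feedback gene Axin2 had a log2 change of -0.14 (adjusted p = 0.97). In all, 1 of 27 WNT genes tested rose and none fell.

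Further early nephron genes that rose were Npy, Papss2, Clec18a and Greb1. Npy, a neuropeptide gene, stood at 2.66, 24.3 and 73.0 CPM in Drop-seq, 2.71, 21.3 and 52.4 in the 10X library, and 1.23, 30.4 and 110.4 with C1 (log2 change 4.09, SE 0.42, adjusted p = 0.00037). Matched progenitors held only 5, 2 and 12 counts of Npy, and 21 of 170, 5 of 63 and 6 of 36 matched members had it detected. A single transition cell held 43.75% of the Npy counts in 10X and 49.3% in C1. Papss2, a sulfate donor synthase gene, had a log2 change of 4.19 (adjusted p = 0.0138), but only 0.89 in 10X, where 3 of 63 members had it. Clec18a had 3.21 (adjusted p = 0.0391) and Greb1 1.80 (adjusted p = 0.0487). The fitted changes of Npy and Papss2 lay nearer to C1, whose reads are not single molecules, than to the UMI libraries.

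Of 27 epithelial genes tested, 2 rose by edgeR and 4 were called by DESeq2. At an unadjusted p under 0.05 there were 11, and 20 of the 27 lay above 0 with a median log2 change of 0.80. The 2 were Cdh16, a kidney cadherin gene (log2 change 1.92, SE 0.36, adjusted p = 0.0458), and Cldn6, a tight junction gene (1.34, SE 0.24, adjusted p = 0.0356). Cldn6 stood at 21.8, 61.8 and 237 CPM in Drop-seq, 13.6, 24.0 and 222 in the 10X library, and 6.98, 18.3 and 66.3 with C1. Without cells with markers of another class its change was -0.09. Cdh1, which encodes E-cadherin, stood at 4.78, 17.7 and 52.0 CPM in Drop-seq, 5.42, 9.34 and 49.1 in the 10X library, and 1.03, 19.02 and 81.6 with C1. Its log2 change of 2.78 did not pass the test (SE 0.58, adjusted p = 0.081). Epcam, an epithelial adhesion gene, had 0.80 (adjusted p = 0.66). Cdh6, an early cadherin gene of the list, was too low for the test, at 0.50 to 3.54 CPM in transition cells. Of 16 mesenchymal genes 0 passed edgeR's test (5 at an unadjusted p under 0.05, 0 by DESeq2, median log2 change -0.61).

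Outside the lists, 13 genes rose, of which the 8 with the largest changes of one sign in every library are named. Emid1, an extracellular matrix gene, stood at 32.4, 88.1 and 213 CPM in Drop-seq, 31.2, 93.4 and 272 in the 10X library, and 24.5, 75.9 and 176 with C1. Its log2 change was 1.57 (SE 0.15, adjusted p = 0.00032), and it was found in 82 of 170, 26 of 63 and 11 of 36 matched members. The receptor gene Epha4 had 1.58 (adjusted p = 0.0156), the phosphatase gene Ptpn13 1.76 (adjusted p = 0.0096), and the secreted Cthrc1 1.66 (adjusted p = 0.0174). The little-studied genes 4930523C07Rik and Fam84b had 2.998 and 2.93 (adjusted p = 0.0156 and 0.0391). Of the exonic bases of Fam84b, 41.8% are shared with an antisense gene (9930014A18Rik). In 10X, 4930523C07Rik had no count in the matched progenitors, where 3 counts would be 4.07 CPM, against 14.7 CPM in transition cells.

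The metallothionein genes Mt1 and Mt2, which encode metal-binding proteins, also passed the test, with log2 changes of 2.58 and 3.02 (adjusted p = 0.0018 and 0.0174). Their counts came from few cells. A single transition cell held 51.0%, 83.3% and 46.9% of the Mt1 counts in Drop-seq, 10X and C1, and 58.8%, 94.7% and 40.7% of the Mt2 counts. In 10X, Mt2 was found in only 2 of 63 members. Without cells with markers of another class Mt2 had a log2 change of -0.57. Of its exonic bases, 73.5% are shared with an antisense gene.

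Hba-a2, a haemoglobin gene, was called (log2 change 1.68, adjusted p = 0.0045) from Drop-seq alone, since both groups had no count of it in 10X and C1. Erythroid markers (7 of 8 above 0) summed to 4676 CPM in Drop-seq transition cells against 1163 in matched progenitors, while 10X had 45.3 and 35.3 and C1 4.93 and 3.28. One Drop-seq cell held 44.3% of the Hba-a2 counts. What part erythroid RNA had in the other Drop-seq values was not tested.

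The 6 genes that fell were Tm4sf1, Ecm1, Ifitm3, Anxa2, Nfib and Tpm2. Tm4sf1, a membrane protein gene, stood at 28.7 CPM in matched progenitors and 7.59 in transition cells in Drop-seq, 35.3 and 14.7 in the 10X library, and 120.3 and 29.2 with C1 (log2 change -1.81, SE 0.27, adjusted p = 0.0096). One C1 progenitor held 840 of the 1172 Tm4sf1 reads of its group (71.7%), and 1 held 43.4% of the Ifitm3 reads. Ecm1 fell by 1.46, Ifitm3 by 1.15, Anxa2 by 1.07, Nfib by 1.01 and Tpm2 by 0.71 on the log2 scale. Tpm2, a tropomyosin gene, was the most widely detected of them, at 483, 338 and 45.0 CPM in Drop-seq, 372, 221 and 31.9 in the 10X library, and 359, 190.2 and 43.7 with C1 (adjusted p = 0.0496).

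Endothelial cells held more of 4 of these transcripts than matched progenitors did in each library. Tm4sf1 was at 234, 420 and 336 CPM there, Ifitm3 at 191, 316 and 323, Anxa2 at 577, 455 and 533, and Nfib at 204, 157 and 284. As a ratio the gap was smallest in C1 for each of the 4. Beside these falls, the 10 stromal markers summed to 439 CPM in transition cells and 604 in matched progenitors in Drop-seq, 331 and 533 in the 10X library, and 790 and 1417 with C1. The 10 endothelial markers summed to 34.9 and 62.1 CPM in Drop-seq, 36.0 and 43.4 in the 10X library, and 64.6 and 392 with C1. Kdr was at 0 in transition cells of 10X and C1, and also in matched progenitors of 10X. All 10 immune markers were at 0 in 10X members, and 8 of the 10 in their matched progenitors. Without cells that had 3 or more markers of another class, Ecm1, Ifitm3 and Nfib had positive log2 changes of 0.26, 0.34 and 0.57.

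Progenitor genes that the rule did not use did not pass the test. Osr1, a transcription factor gene of the earliest kidney mesenchyme, had 72.4 CPM in Drop-seq transition cells against 93.5 in matched progenitors, 61.4 against 126 in 10X and 60.7 against 71.4 in C1 (log2 change -0.50, SE 0.24, adjusted p = 0.66). Gdnf, the signal that draws the ureteric bud, had 27.9 against 30.8, 37.3 against 52.9 and 51.8 against 59.8 CPM (log2 change -0.27, SE 0.34, adjusted p = 0.88). Itga8, an integrin gene, had a log2 change of -0.09 (SE 0.25), Wt1 0.06 (SE 0.19), Sall1 0.26 (SE 0.17), Pax2 0.24 (SE 0.18), Gfra1 0.02 (SE 0.26) and Bmp7 0.28 (SE 0.23), each with an adjusted p of 0.746 or more. Missing the threshold does not show that these levels were equal. The proliferation marker Mki67 had -0.22 (SE 0.15, adjusted p = 0.76), and 0 of 36 cell cycle genes (2 at an unadjusted p under 0.05, 1 called by DESeq2) and 0 of 17 stress genes (1 and 0) passed edgeR's test. Of the other lists, 0 of 18 FGF, 0 of 21 BMP and TGF-beta, 0 of 6 podocyte and 0 of 10 tubule segment genes passed it, with 3, 3, 1 and 6 at an unadjusted p under 0.05 and 0 called by DESeq2. All 10 tubule segment genes had fitted changes above 0, with a median log2 change of 2.19, but the libraries differed. The list summed to 145 CPM in transition cells against 37.7 in matched progenitors in Drop-seq, 77.4 against 86.8 in the 10X library, and 76.7 against 29.1 with C1.

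**Figure D3:**
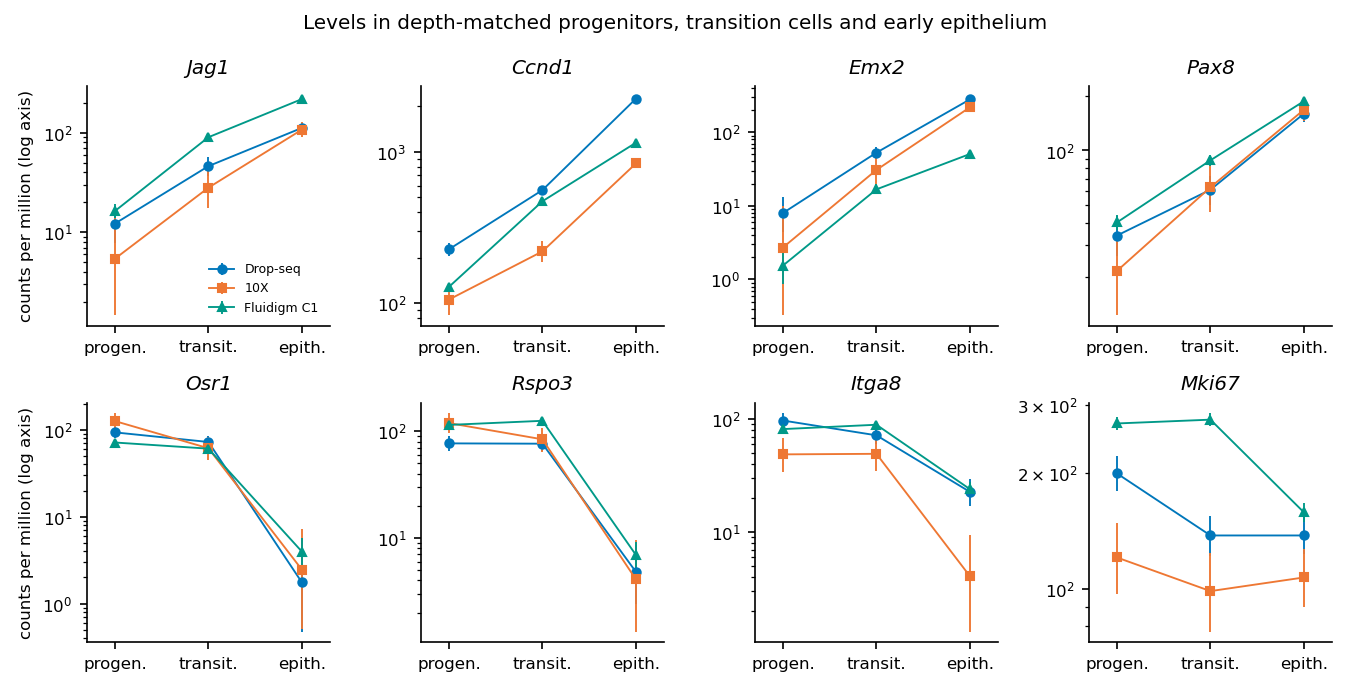
CPM on log axes (y axis) of 8 genes in matched progenitors, transition cells and early epithelium (x axis) for each library, with exact Poisson 95% intervals that cover counting error only. Jag1, Ccnd1, Emx2 and Pax8 climb in both steps in every library, and Osr1 and Rspo3 drop mainly in the second step, where Osr1 ends at 1.75 to 3.96 CPM.

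The second comparison asked how transition cells differed from early epithelium. It shares the sums of transition cells with the first, so the 2 sets of values are not independent. Here 169 genes were higher and 178 lower in transition cells, 3.45% of those tested (1.68% higher and 1.77% lower). The early nephron genes stood lower in transition cells: 17 of 25 were lower, and only Sox4, a transcription factor gene, was higher (log2 change 0.87, adjusted p = 0.00041). Of the cap mesenchyme genes outside the gate, 15 of 26 were higher in transition cells and none lower. The rule itself set these groups apart. It asked for 3 or more progenitor genes in transition cells and 0 or 1 in early epithelium. Of Wnt4, Lhx1 and Fgf8 it asked for 1 and 2. Genes that go with the rule genes could therefore differ through the choice of cells, and that part was not tested. Without 10X the count was 98 higher and 55 lower, without Drop-seq 111 and 85, and without C1 546 and 621.

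Among the progenitor genes higher in transition cells than in early epithelium, Rspo3, a WNT agonist, stood at 76.99, 76.5 and 4.81 CPM in Drop-seq, 119, 84.0 and 4.09 in the 10X library, and 115, 125 and 6.93 with C1. Transition cells exceeded early epithelium by 4.10 on the log2 scale (SE 0.23, adjusted p = 4.8e-07). Osr1 exceeded it by 4.30 (SE 0.32, adjusted p = 6.5e-06), Kif26b, a kinesin gene active in nephrogenic mesenchyme, by 4.09 (adjusted p = 3.9e-05), Robo2, a guidance receptor gene, by 2.78 (adjusted p = 0.00074) and Itga8 by 2.03 (adjusted p = 0.0006). Gdnf and Wt1 exceeded it by 1.45 and 0.84 (adjusted p = 0.0431 and 0.0271). Sall1 and Pax2 differed by 0.13 and 0.18 and did not pass the test (adjusted p = 0.77 and 0.68). Outside the lists, Phf19, a chromatin gene of the Polycomb group, stood at 39.8, 37.5 and 1.31 CPM in Drop-seq, 31.2, 30.7 and 0.82 in the 10X library, and 41.2, 42.4 and 0.57 with C1, a log2 difference of 5.55 from early epithelium (SE 0.41, adjusted p = 6.5e-06). Against matched progenitors Rspo3 had a log2 change of -0.08 (adjusted p = 0.94). The 8 highest such genes, Ntrk3, Phf19, Kazald1, Fat3, Siglecg, Ajap1, Asic2 and Traf1, lay between 4.36 and 5.95, and the 8 lowest, Gprc5a, Pde2a, Krt23, Akr1c18, Kcnc2, Has3, Slc47a1 and Tspan8, between -5.64 and -3.96. They were ranked by fold change alone and were not equally firm. Phf19 passed the threshold in 19 of 19 alternative settings and Tspan8 in 16 of 18, but Kcnc2 in 9 of 14, Slc47a1 in 8 of 16 and Asic2 in 4 of 15. The log2 ratio of Asic2 was 0.73 in Drop-seq and 4.29 in 10X.

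In the opposite direction, Hes5 was lower in transition cells than in early epithelium (log2 change -3.32, SE 0.32, adjusted p = 4.2e-05). Emx2 had -2.20 (adjusted p = 4.2e-05), Dll1 -2.12 (adjusted p = 0.0035), Ccnd1 -1.70 (adjusted p = 1.3e-05), Jag1 -1.43 (adjusted p = 0.00052) and Pax8 -1.28 (adjusted p = 0.00031). Lfng, which modifies Notch receptors, had -2.13 (adjusted p = 0.019), and 7 of 17 Notch genes were lower in all. Of 10 tubule segment genes 3 were lower: Pou3f3, a factor of the loop of Henle lineage, had -2.79 (adjusted p = 0.0041), and Irx1 had -2.47 (adjusted p = 0.0449). Among other lists, 4 WNT genes were higher and 4 lower of 27, 1 of 18 FGF, 1 of 21 BMP and TGF-beta, 2 of 16 mesenchymal and 1 of 6 podocyte genes were higher, 1 of 36 cell cycle genes was lower, and 0 of 17 stress genes were called (4 at an unadjusted p under 0.05, 0 by DESeq2). Of the epithelial genes, 10 of 27 were lower, among them Cldn7 at -2.59 (adjusted p = 0.001), Cldn6 at -2.20 (adjusted p = 4.2e-05), Epcam at -1.98 (adjusted p = 0.0165) and Cdh1 at -1.95 (adjusted p = 0.024).

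At the level of cells, early nephron transcripts were spread unevenly among members. The groups of cells were set at full depth here. After thinning to a fixed depth, 3 or more of the 26 early nephron genes were found in 71.7% of 173 members in Drop-seq (exact 95% interval 64.3 to 78.3), 59.7% of 62 in 10X (46.5 to 72.0) and 35.9% of 39 in C1 (21.2 to 52.8). The shares were 41.4%, 35.0% and 3.09% in all gate cells with none of the 3 genes and 98.9%, 98.98% and 92.3% in early epithelium. Members therefore lay between the other groups in each library, and their distribution overlapped both. At full depth the shares were 84.7%, 77.8% and 69.4% in matched members and 68.8%, 68.3% and 30.6% in their partners. Endothelial cells stood at 57.0%, 61.1% and 44.3%, so the count of genes alone does not mark a cell.

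**Figure D4:**
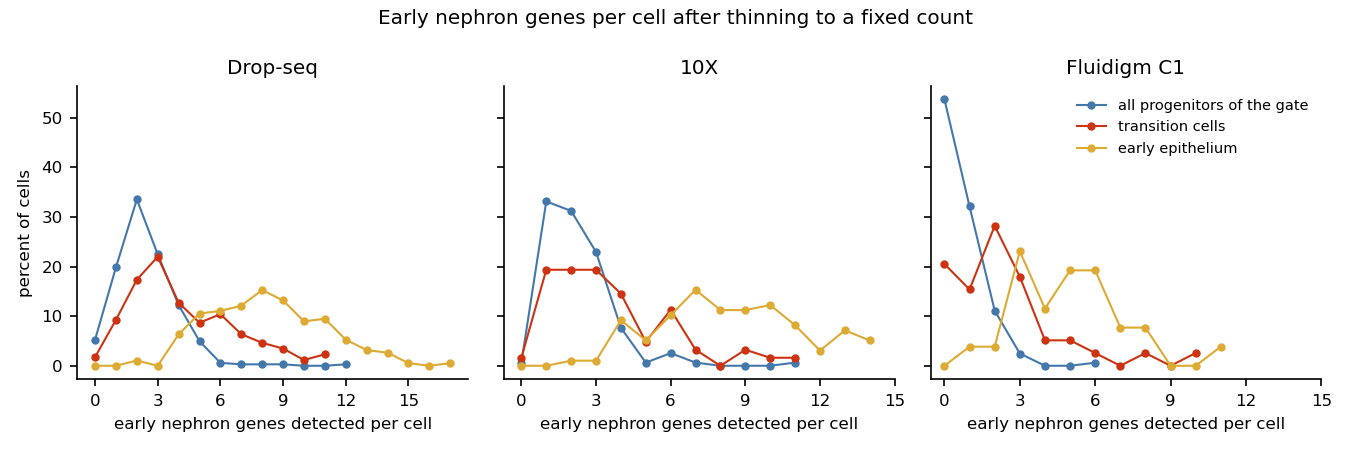
Share of cells (y axis, percent) by the number of early nephron genes detected per cell (x axis) after thinning to 5000 UMIs or 100000 reads, for all gate cells with none of the 3 genes, transition cells and early epithelium. The median is 2, 3 and 8 genes in Drop-seq and 10X, and 0, 2 and 5 in C1, with the groups set at full depth.

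Which of the 3 genes a member had went with how much early nephron RNA it held. The early nephron genes summed to 825 CPM in matched progenitors of Drop-seq, 958 in members with Fgf8 alone, 1187 with Wnt4 alone, 1928 with Lhx1 alone and 2304 with 2 or 3 of the genes. In 10X the sums were 953, 809, 1384, 1022 and 2391 CPM. In C1 they were 534, 977, 1045, 1307 and 2865. Members with several of the genes held the most in each library, and members with Fgf8 alone were near the matched progenitors in Drop-seq and 10X. Those with several were also deeper, with median counts of 16540 in Drop-seq, 17040 in 10X and 352500 with C1 against 10260, 10990 and 257200 in matched progenitors, and the part of depth was not tested. The Lhx1-alone sets of 10X and C1 held 3 cells each. All members entered these sums, also the 15 Drop-seq, 1 10X and 3 C1 members without a partner. The Drop-seq barcode of 325686 UMIs is therefore in the Drop-seq sums, and its weight there was not tested.

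Single genes varied in their order. In Drop-seq, Jag1 was found in 1 of 46 cells with Fgf8 alone, 8 of 47 with Wnt4 alone, 17 of 46 with Lhx1 alone and 23 of 46 with several. Emx2 was found in 2, 8, 17 and 21 of these cells, and Pax8 in 13, 10, 22 and 29. By level the order differed: Jag1 stood at 69.1 CPM with Lhx1 alone and 50.7 with several, and Ccnd1 at 722 and 645.5 CPM. In 10X, Jag1 was found in 1 of 27 cells with Fgf8 alone, 4 of 25 with Wnt4 alone and 6 of 9 with several. The cap mesenchyme genes were lowest in Drop-seq members with several, at 3495 CPM with Fgf8 alone, 2602 with Wnt4 alone, 2802 with Lhx1 alone and 2091 with several, against 3101 in matched progenitors. In 10X the sums were 3633, 2730, 3499 and 2766 CPM against 3339. In C1 they were 2262, 1923, 2803 and 2141 CPM against 2127, so members with several were not lower there. These splits again hold all members, with the Drop-seq barcode of 325686 UMIs, while the progenitors are the matched ones. They are descriptions of 1 library each and carry no test.

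**Figure D5:**
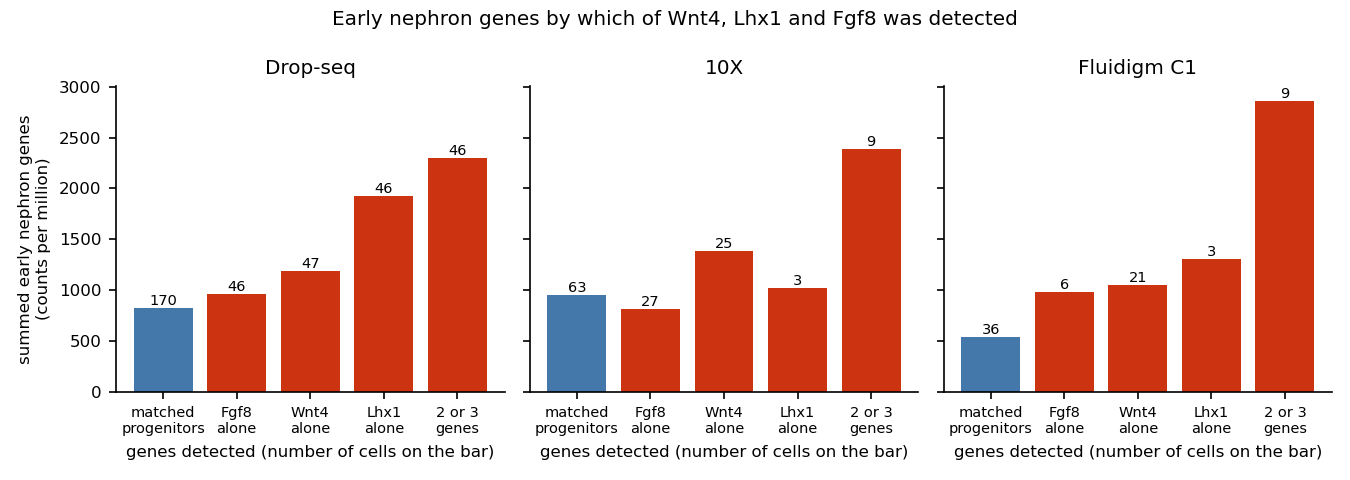
Summed early nephron genes in CPM (y axis) in matched progenitors (blue) and in members by which of Wnt4, Lhx1 and Fgf8 was detected (red, x axis), per library, with the number of cells on each bar. Members with 2 or 3 of the genes stand highest, at 2304, 2391 and 2865 CPM, and those with Fgf8 alone stand at 958, 809 and 977.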

How the data were processed

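The deposited count tables of the 3 libraries were used, with 17864 gene symbols shared. Values are whole-number counts per gene and cell as deposited by the authors, UMIs in Drop-seq and 10X and reads in C1. Per the submitters' processing notes, reads were processed with Bowtie2 2.2.7 or Cell Ranger 1.3.0 and build mm10. The sources used here name no counting tool, strand setting, annotation or criterion for depositing a cell. The deposited normalized tables were not used. The preparation text of the labels describes Drop-seq for all 3 samples.

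Members, gene lists and the rule for named genes were chosen with earlier results of these data known. Named were the 9 rule genes, a fixed panel whatever its test, up to 15 list genes per comparison and the 8 highest and 8 lowest other genes past the threshold with the same sign in every library. Sox11, Pdgfa, Gja1, Kdm2b and Hba-a2 passed the threshold outside that rule, and Hba-a2, Nrarp, Notch1, Axin2 and Sox4 were named after their values were seen. A gene that the rule names is not reported here.

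Counts summed over 9 sets of cells (3 groups in each library) entered edgeR 4.0.16 under R 4.3.3, with TMM scaling, filterByExpr, the robust quasi-likelihood F test and the library as a block, leaving 4 residual degrees of freedom. The matching was optimal 1-to-1 assignment in Python 3.11.15 (scipy 1.17.1), within the C1 name groups. P-values are two-sided with Benjamini-Hochberg adjustment over 10048 genes, without the 9 rule genes. Standard errors were taken as the log2 fold change divided by the root of F. Scrublet was run through scanpy 1.11.5 with 6% doublets expected. DESeq2 1.42.0 and limma 3.58.1 served as alternatives. Binomial and Poisson intervals are exact at 95% and cover counting error only. A group needed 20 cells in a library to enter a fit. Summed depths were 1883454 to 2286910 UMIs per Drop-seq group, 737634 to 1222642 in 10X and 7072292 to 9934767 reads in C1. Coordinates are from GENCODE vM21 and promoters from RefSeq.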

Additional observations from a re-analysis of the deposited data

How the results depend on the processing

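Transition cells against matched progenitors gave 34 genes. The count was 127 at 100 or more reads in C1 (which leaves no C1 member) and 76 at 5 or more, 78 with DESeq2, 57 with Lhx1 or Fgf8 detected (where the 17 C1 members were too few to enter the fit), 86 with Wnt4 detected, 60 without depth matching, 1523 with limma-voom and 0 after thinning (233 at an unadjusted p under 0.05). Without cells with markers of another class, which also left fewer cells in the fit, edgeR called 7 (840 at an unadjusted p under 0.05). Leaving out 1 library gave 25 (without Drop-seq) to 127 (without C1). Without the replicate block for library, edgeR called 0 genes (193 at an unadjusted p under 0.05). Of the 34 genes, 33 were still called by DESeq2, 31 without C1, 24 without 10X, 15 without Drop-seq and 6 without cells with markers of another class. Jag1 passed the threshold in 20 of 22 alternatives, Emx2, Ccnd1 and Emid1 in 19 of 22, Dll1 in 9 of 21 and Greb1 in 7 of 22. An alternative chosen after seeing the data, without the 5 deepest barcodes of each library, called 32.

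Transition cells against early epithelium gave 347 genes: 1167 at 100 or more and 753 at 5 or more reads in C1, 1064 with 4 or more progenitor genes and 786 with Lhx1 or Fgf8 (both without C1 members, 16 and 17 being too few, so that the gate and the library changed together), 202 with Wnt4, 1939 with limma-voom, 13 without the replicate block, and 153 (without 10X) to 1167 (without C1) with 1 library left out. The share of members was 15.3%, 12.3% and 4.44% in Drop-seq, 10X and C1 with every cell thinned before gating. It was 24.1%, 16.5% and 8.82% with Lhx1 or Fgf8, and 13.8% and 13.5% with Wnt4 in the UMI libraries. In C1 it was 35.2% at 5 or more and 0% at 100 or more reads.

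Log2 changes of opposite sign against matched progenitors were these. After thinning they were -0.90 for Papss2, -0.58 for Cthrc1, -0.023 for Pax2, -0.028 for Sall1 and -0.014 for Epcam. Without cells with markers of another class they were -0.092 for Cldn6, -0.57 for Mt2, 0.26 for Ecm1, 0.34 for Ifitm3, 0.57 for Nfib, 0.24 for Itga8, -0.89 for Gfra1, -0.22 for Bmp7, -0.11 for Epcam and 0.029 for Mki67. Without depth matching they were 0.00063 for Anxa2, -0.13 for Wt1, -0.30 for Gfra1 and -0.095 for Bmp7. Wt1 and Gfra1 had -0.19 and -0.31 without C1 and equally at 100 or more reads, -0.16 and -0.12 with 4 or more progenitor genes, -0.35 and -0.16 with Lhx1 or Fgf8, and -0.0060 and -0.22 without the replicate block. Wt1 had -0.090 at 5 or more reads and -0.031 with the C1 name groups apart. Gfra1 had -0.10 with Wnt4, -0.077 matched on detected genes and -0.036 without called doublets. Hes1 had -0.13 with Wnt4. Matched on detected genes, Gdnf had 0.0048 and Itga8 0.0019, and Itga8 had 0.022 with limma-voom and 0.11 without Drop-seq.

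Against early epithelium, thinning gave -0.18 for Pax2, -0.11 for Sall1 and -0.072 for Mki67. Pax2 had -0.032 and Mki67 -0.0093 without C1 and equally at 100 or more reads, Pax2 -0.0040 with 4 or more progenitor genes, and Sall1 -0.044 at 5 or more reads. Mki67 had -0.15 with Lhx1 or Fgf8, and Hes1 -0.17 with Wnt4 and -0.021 with limma-voom. With each library left out in turn, the changes against matched progenitors ranged from -0.19 to 0.22 for Wt1, -0.31 to 0.24 for Gfra1 and -0.30 to 0.11 for Itga8, and those against early epithelium from -0.032 to 0.44 for Pax2 and -0.0093 to 0.45 for Mki67. The cause was not tested for any of these. Of the other values, 1382 of named genes kept their direction and side of the threshold, 289 lost the threshold and 20 gained it. With 1 library per platform, and 1 UMI deciding many memberships, depth limits which cells are found.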
